A study of Mus musculus with 11 samples.

Results

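The genes described here are 10 components of the circadian clock, Arntl, Clock, Per1, Per2, Per3, Cry1, Cry2, Nr1d1, Nr1d2 and Dbp. They were chosen by symbol from the deposited count table, where they are 10 of 22600 genes, and all 10 passed the filter on low counts that left 16496 genes for testing. RNA was sequenced from the whole distal tibia, the end of the shin bone where constitutive bone marrow adipocytes (BMAds) lie, with marrow and bone crushed together. There were 4 Control libraries (genotype label BMAd-WT) and 7 BMAd-DTA libraries, with 1 library per mouse, strain label C57BL6/SJL, 24 weeks of age, fed ad libitum and given no treatment. According to the study's methods, its mice carried Osterix-FLPo and FAC, a FLPo-dependent Cre inserted at Adipoq, so these alleles were in the Control mice as well. BMAd-DTA mice also carried ROSA-DTA, from which the diphtheria toxin A chain is made once Cre has removed a stop cassette. Cre was driven by the endogenous Adipoq locus in cells with a history of Osterix expression, its efficiency rose with age, and it also reached a small subset of marrow adipogenic lineage precursors. The mice lived under alternating light and dark, and the hour of tissue collection is not given in the sources used here.

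The clock of a mammalian cell is a loop of transcription and repression that takes about a day to turn. ARNTL, also called BMAL1, pairs with CLOCK, binds DNA sequences called E-boxes and switches on the Per, Cry, Nr1d1, Nr1d2 and Dbp genes. PER and CRY proteins then hold ARNTL and CLOCK back, while NR1D1 and NR1D2 (REV-ERB alpha and beta) repress Arntl, and DBP acts at D-boxes in the promoters of further clock and output genes. In tissues sampled around the clock, Arntl and the group of Nr1d1 and Dbp peak at opposite times of day. Per1 is also switched on directly by glucocorticoid hormones and by cAMP signalling.

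The 250 bases before the RefSeq start sites (GRCm38.p6) were read for 9 of the 10 genes (all but Per2), in 13 entries. They are shown because the loop described above works through DNA elements of such kinds. A match of letters does not show that a protein binds there, and binding was not tested. Each window was searched on both strands for the E-box CACGTG, the D-box as TTATGTAA or TTACGTAA, the AGGTCA core bound by REV-ERB and ROR receptors, and the cAMP response element TGACGTCA. Among all 32851 promoter windows of this length, 6.02% held the E-box, 0.93% the D-box, 14.02% AGGTCA and 1.55% the cAMP response element. In the first entry of each gene, 4 windows held a match, printed here 5′ to 3′ with the matches in capitals.
Per3, chr4:151044666-151044915, minus strand: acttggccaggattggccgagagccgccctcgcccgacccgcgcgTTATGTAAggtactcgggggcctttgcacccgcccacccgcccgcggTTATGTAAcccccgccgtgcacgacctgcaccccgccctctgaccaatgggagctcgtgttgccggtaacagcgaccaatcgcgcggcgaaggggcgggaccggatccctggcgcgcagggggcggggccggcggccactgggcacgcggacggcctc
Cry1, chr10:85185055-85185304, minus strand: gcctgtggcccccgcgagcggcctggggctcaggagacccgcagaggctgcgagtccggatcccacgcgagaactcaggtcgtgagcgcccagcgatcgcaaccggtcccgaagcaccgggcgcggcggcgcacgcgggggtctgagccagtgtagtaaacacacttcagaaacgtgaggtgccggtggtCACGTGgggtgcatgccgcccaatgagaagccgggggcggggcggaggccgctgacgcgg
Per1, chr11:69098699-69098948, plus strand: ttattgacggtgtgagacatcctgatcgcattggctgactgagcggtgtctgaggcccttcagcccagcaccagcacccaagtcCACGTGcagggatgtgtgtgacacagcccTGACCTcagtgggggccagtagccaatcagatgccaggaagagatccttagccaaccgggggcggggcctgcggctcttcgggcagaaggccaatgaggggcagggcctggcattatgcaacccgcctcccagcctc
Nr1d2, chr14:18239107-18239356, minus strand: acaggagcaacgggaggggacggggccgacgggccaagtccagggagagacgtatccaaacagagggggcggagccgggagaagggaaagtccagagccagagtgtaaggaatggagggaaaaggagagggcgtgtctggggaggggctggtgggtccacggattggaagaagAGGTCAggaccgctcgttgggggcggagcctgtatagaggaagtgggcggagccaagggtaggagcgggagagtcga
Per3 had a pair of D-boxes, whose first bases lay 205 and 158 bases before its start. The E-boxes of Cry1 and Per1 began 60 and 166 bases before the start, and Per1 also held AGGTCA, read on the other strand as TGACCT, from base 137. Nr1d2 held AGGTCA from base 77. The third entry of Clock held TGACCT from base 119. The other windows, those of Arntl, Cry2, Nr1d1 and Dbp among them, held none of these letters, which says nothing of sites elsewhere in the genes.

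The tables totalled 16969529 to 18637663 counts per library, and the members had from 211 counts (Arntl in BMAd-DTA replicate 3) to 1732 counts (Nr1d1). Adipoq and 9 other adipocyte genes checked the genotype: all 10 had log2 fold changes below 0, with a median of -1.24, and edgeR called 1, Retn (resistin), at -1.38 ± 0.17 (adjusted p = 0.0205). Their summed level overlapped between groups, at 700 to 1474 CPM in Control and 256 to 916 CPM in BMAd-DTA libraries, where CPM is the number of counts per 1000000 counts after TMM scaling. Skeletal muscle genes separated the libraries across the genotypes, with summed levels of 21.2 to 29.4 CPM in 4 libraries (Control replicate 4 and BMAd-DTA replicates 2, 3 and 5) and 203 to 1469 CPM in the other 7. Control replicate 1 had the lowest sum of osteoblast and osteocyte genes, 2849.9 CPM against 11339 to 12963 CPM in the other Control libraries and 15285 to 35968 CPM in BMAd-DTA. That sum was mostly Col1a1 and Col1a2. Xist had 13810 to 20260 counts in each library and 4 genes of the Y chromosome 0 or 1 count together, which is the pattern of female mice in every library. The labels give no sex, and the study's figure legends describe male mice. In whole bone, fewer cells of a type and less RNA per cell cannot be told apart.

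No clock gene passed the test between genotypes. In the quasi-likelihood test of edgeR with Benjamini-Hochberg adjustment over 16496 genes, 0 of the 10 members had an adjusted p under 0.05, beside 13 genes (0.0788%) called in the whole table. At an unadjusted p under 0.05, the edgeR test had 0 members, where 16.4% of all genes passed, and DESeq2 and limma-voom also had 0. DESeq2 called 0 members at an adjusted p under 0.05 and 5.42% of the genes for which it gave one. The groups overlapped for all 10 members, while 2.81% of all tested genes had no overlap. Log2 fold changes (BMAd-DTA minus Control) ran from -0.04 for Clock to 0.24 for Nr1d2, with a median of 0.07, against 0.002 over all tested genes. Of the members 9 of 10 were above 0, beside 50.4% of all tested genes, but these values come from the same mice and are not independent. Without Control replicate 1, Per2, Cry1 and Dbp were at -0.03.

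**Figure D1:**
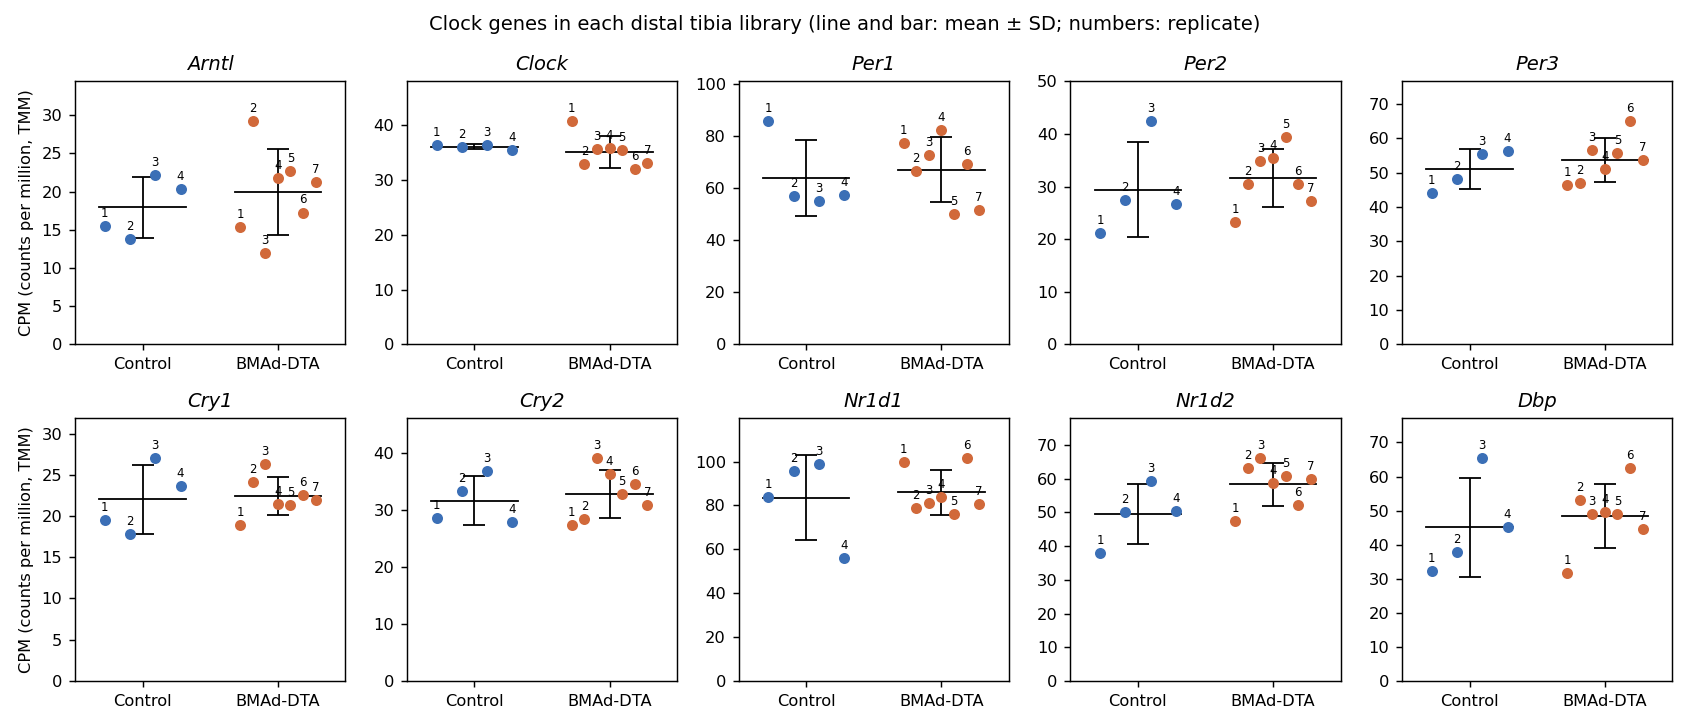
CPM (TMM scaled) of each clock gene in the 4 Control (blue) and 7 BMAd-DTA (orange) libraries, with the replicate number beside each point and the mean ± SD of each group in black. The groups overlap in every panel, Clock spans only 32.1 to 40.8 CPM, and Per1 in Control replicate 1 lies at 85.8 CPM, above 55.2 to 57.4 CPM in the other Control libraries.

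The activators behaved unlike each other from mouse to mouse. Arntl (ENSMUSG00000055116.8, chr7:113207465-113314126, plus strand) had 15.5, 13.8, 22.2 and 20.3 CPM in Control replicates 1 to 4 and a lowest, median and highest value of 12.0, 21.3 and 29.2 CPM in BMAd-DTA. The lowest and the highest of all 11 libraries were both BMAd-DTA (replicates 3 and 2), so the Control values lay inside the BMAd-DTA range. Its means were 18.0 ± 3.97 CPM (SD, n = 4) and 20.0 ± 5.64 CPM (n = 7), a log2 fold change of 0.15 ± 0.21 (SE) with an adjusted p of 0.779 in edgeR. That value was 0.04 without BMAd-DTA replicate 2 and 0.27 without Control replicate 3. Clock (ENSMUSG00000029238.11, chr5:76209868-76304792, minus strand), which encodes the partner of ARNTL, had 36.4, 36.0, 36.5 and 35.4 CPM in Control. In BMAd-DTA libraries it ran from 32.1 to 40.8 CPM with a median of 35.5 CPM, and only replicate 1 lay above the Control values. The log2 fold change of Clock was -0.04 ± 0.07 (95% interval -0.19 to 0.12, adjusted p = 0.840, edgeR).

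Per genes encode the partners of CRY proteins in the repressor complex, and their levels differed in pattern. Per1 (ENSMUSG00000020893.17, chr11:69095217-69109960, plus strand) had 85.8, 57.0, 55.2 and 57.4 CPM in Control and 49.9, 69.5 and 82.6 CPM as lowest, median and highest in BMAd-DTA. Control replicate 1 exceeded every other library, and BMAd-DTA replicates 5 and 7 were the only libraries below the lowest Control. The log2 fold change of Per1, 0.07 ± 0.16 (adjusted p = 0.864, edgeR), became 0.25 without Control replicate 1. Per2 (ENSMUSG00000055866.9, chr1:91415982-91459324, minus strand) had 21.2, 27.4, 42.4 and 26.7 CPM in Control, where replicates 1 and 3 were the lowest and highest of all 11 libraries. Its BMAd-DTA values of 23.2 to 39.4 CPM (median 30.4) therefore lay within the Control range, and the log2 fold change was 0.10 ± 0.18 (adjusted p = 0.826, edgeR). Per3 (ENSMUSG00000028957.12, chr4:151003652-151044665, minus strand) was steadier, at 44.1, 48.2, 55.4 and 56.3 CPM in Control and 46.4 to 65.0 CPM (median 53.6) in BMAd-DTA. Its log2 fold change was 0.07 ± 0.10 (adjusted p = 0.780, edgeR).

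The cryptochromes are the second arm of that repressor complex. Cry1 (ENSMUSG00000020038.10, chr10:85131700-85185064, minus strand) had 19.6, 17.8, 27.1 and 23.6 CPM in Control and 18.9, 22.0 and 26.3 CPM as lowest, median and highest in BMAd-DTA. Here too the Control libraries enclosed the BMAd-DTA range, and the log2 fold change was 0.02 ± 0.12 (adjusted p = 0.947, edgeR). Cry2 (ENSMUSG00000068742.11, chr2:92403646-92434043, minus strand) had 28.6, 33.3, 36.9 and 27.9 CPM in Control and 27.5 to 39.2 CPM (median 32.9) in BMAd-DTA. BMAd-DTA replicates 1 and 3 were the lowest and highest of the 11 libraries, and the log2 fold change was 0.05 ± 0.11 (adjusted p = 0.870, edgeR).

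Of the REV-ERB receptors, Nr1d2 had the largest genotype difference among the members, and it did not pass the test. Nr1d2 (ENSMUSG00000021775.11, chr14:18204054-18239127, minus strand) had 38.0, 50.1, 59.4 and 50.6 CPM in Control and 47.6, 60.1 and 66.2 CPM as lowest, median and highest in BMAd-DTA. In 4 of 7 BMAd-DTA libraries it exceeded every Control library, and Control replicate 1 was the lowest of all. The log2 fold change was 0.24 ± 0.12 with a 95% interval of -0.01 to 0.49, an unadjusted p of 0.0603 and an adjusted p of 0.326 (edgeR). It was 0.13 without Control replicate 1, below the 0.25 of Per1 in that fit. With the summed B lymphocyte genes as a covariate, a setting added after the data were seen, it was 0.10, where Per1 had 0.29. Without Control replicate 3 it was 0.34, without BMAd-DTA replicate 1 0.28 and without BMAd-DTA replicate 6 0.26. In those leave-out fits its unadjusted p was under 0.05 and its adjusted p at least 0.138 (edgeR). The 10 osteoblast and osteocyte genes all had an unadjusted p under 0.05 in edgeR, with a median log2 fold change of 1.14. Most of their sum was Col1a1 and Col1a2, with means of 9363 and 7296 CPM, and Ibsp was next with 696 CPM. The sum followed Nr1d2 over the 11 libraries with r = 0.87 (rho = 0.78). That relation had a permutation p of 0.00181 and an adjusted p of 0.192 over 110 pairs of a member and a list, fell to r = 0.53 without the 2 libraries farthest from the median and was 0.63 within BMAd-DTA (exact permutation p = 0.129). Nr1d2 also followed the summed T lymphocyte genes (r = 0.78, rho = 0.71, permutation p = 0.00586 and 0.0175, adjusted 0.213 and 0.482) and B lymphocyte genes (r = 0.76, rho = 0.63, permutation p = 0.00776 and 0.0433, adjusted 0.213 and 0.663), with r = 0.41 and 0.40 without the 2 farthest libraries. The part of these cell types in the Nr1d2 values was not tested.

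Nr1d1 (ENSMUSG00000020889.11, chr11:98767932-98775333, minus strand) had 83.9, 95.6, 98.8 and 55.9 CPM in Control and 76.0, 81.1 and 102 CPM as lowest, median and highest in BMAd-DTA. Control replicate 4 stood below every other library. It also had the lowest sum of erythroid genes, 12999.8 CPM against 17202 to 30619.8 CPM, and of skeletal muscle genes, 21.2 CPM. Over the 11 libraries Nr1d1 and the erythroid sum had r = 0.57 (rho = 0.24, permutation p = 0.0691 and 0.487, adjusted 0.584 and 0.863). Their r was 0.37 without the 2 farthest libraries and -0.31 within BMAd-DTA (exact permutation p = 0.485). In the libraries low in skeletal muscle genes Nr1d1 ran from 55.9 to 81.1 CPM, and in the others from 80.7 to 102 CPM. The log2 fold change of Nr1d1 was 0.04 ± 0.14 (adjusted p = 0.919, edgeR), and it was -0.11 without Control replicate 4. With the summed skeletal muscle genes as a covariate it was 0.17 (adjusted p = 0.446, edgeR). The part of these cell types in the Nr1d1 values was not tested. Nr1d1 overlaps Thra on the opposite strand. Counts on that strand were 9.94% of the Nr1d1 total, or 133 to 208 per library, and at most 3.40% for the other members. The deposited counts are of the read strand, so these are not in the values given. In the annotation, Sphk2 overlaps Dbp, D930015M05Rik overlaps Cry2 and Gm45355 overlaps Arntl on the opposite strand, and on their own strand Per3 overlaps Camta1 and Clock overlaps Ube2n-ps1 and Gm43658, where counts shared between genes are less certain.

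Dbp, the D-box activator and a direct target of ARNTL and CLOCK, is the output gene of the group. Dbp (ENSMUSG00000059824.12, chr7:45705088-45710203, plus strand) had 32.2, 37.9, 65.5 and 45.1 CPM in Control, and its lowest, median and highest BMAd-DTA values were 31.6, 49.1 and 62.4 CPM. Control replicate 3 was the highest of the 11 libraries, BMAd-DTA replicate 1 the lowest. Both groups thus covered a range of about the same width, 2.03-fold in Control and 1.98-fold in BMAd-DTA, and the log2 fold change was 0.10 ± 0.19 (adjusted p = 0.840, edgeR).

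**Figure D2:**
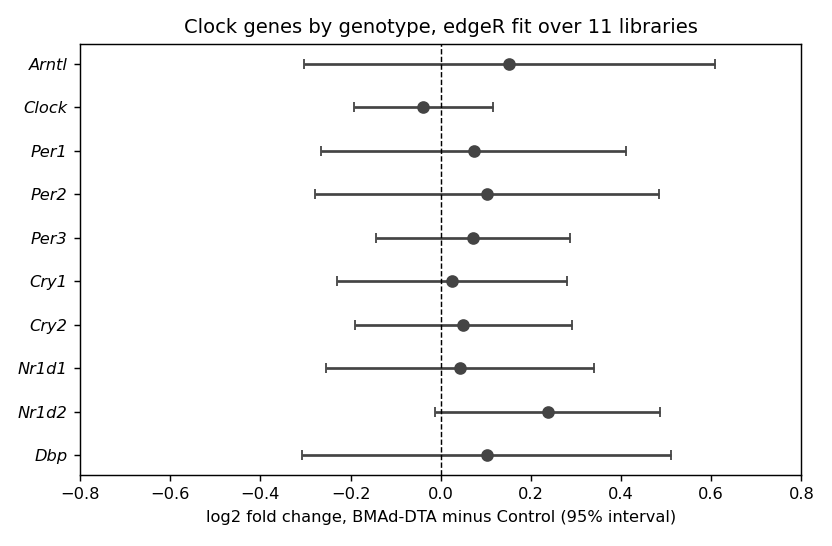
Log2 fold change of each clock gene (BMAd-DTA minus Control) from the edgeR fit over 11 libraries, with its 95% interval. Every interval includes 0, that of Nr1d2 (-0.01 to 0.49) only just, and the widest is that of Arntl (-0.30 to 0.61).

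As folds of BMAd-DTA over Control, these 95% intervals come from a fit with genotype as the only term. For Clock the interval ran from 0.875 to 1.08, and for Per3 from 0.905 to 1.22. For Arntl it ran from 0.81 to 1.53, for Dbp from 0.808 to 1.42, and for Per2 from 0.824 to 1.40.

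Per kilobase of merged exon, the order of levels ran from Nr1d1 at 27.7 ± 4.35 CPM per kb (SD, n = 11) to Arntl at 2.56 ± 0.66 CPM per kb. Dbp (15.8), Per1 (11.7) and Nr1d2 (10.2 CPM per kb) followed Nr1d1. Nr1d1 was above Dbp and Nr1d2 above Cry1 in 11 of 11 libraries, Dbp was above Per1 in 9 and Per1 above Nr1d2 in 8. Cry1 (6.66 CPM per kb) was above Per3 in every library, while Per3 (5.48), Per2 (5.26) and Cry2 (5.13 CPM per kb) could not be ordered: Per3 exceeded Per2 in 6 libraries and Per2 exceeded Cry2 in 5. Cry2 was above Clock (2.59 CPM per kb) in all 11 libraries, and Clock was above Arntl in 5.

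Between mice of one genotype the spread differed widely among the members. The SD of log2 CPM, pooled within groups, was 0.39 for Arntl, 0.35 for Dbp, 0.32 for Per2 and 0.29 for Per1. It was 0.26 for Nr1d1, near 0.20 for Nr1d2, Cry1 and Cry2 (0.20, 0.20 and 0.19), 0.17 for Per3 and 0.09 for Clock. Counting noise alone would give at most 0.08 (Arntl), and 0.06 for Clock. Among the 5712 tested genes with mean levels between those of Arntl and Nr1d1 (19.2 to 85.1 CPM), the median SD was 0.14. Arntl had a larger SD than 94.9% of these genes, Dbp than 93.5%, Per2 than 91.9%, Per1 than 90.2% and Nr1d1 than 87.1%. Clock, which cycles little or not at all in many tissues, had a larger SD than 13.9%. With each library left out in turn, the SD of Arntl stayed between 0.32 and 0.41 and that of Dbp between 0.29 and 0.37. The SD of Nr1d1 fell to 0.16 without Control replicate 4 and that of Clock to 0.06 without BMAd-DTA replicate 1, no more than its counting noise.

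**Figure D3:**
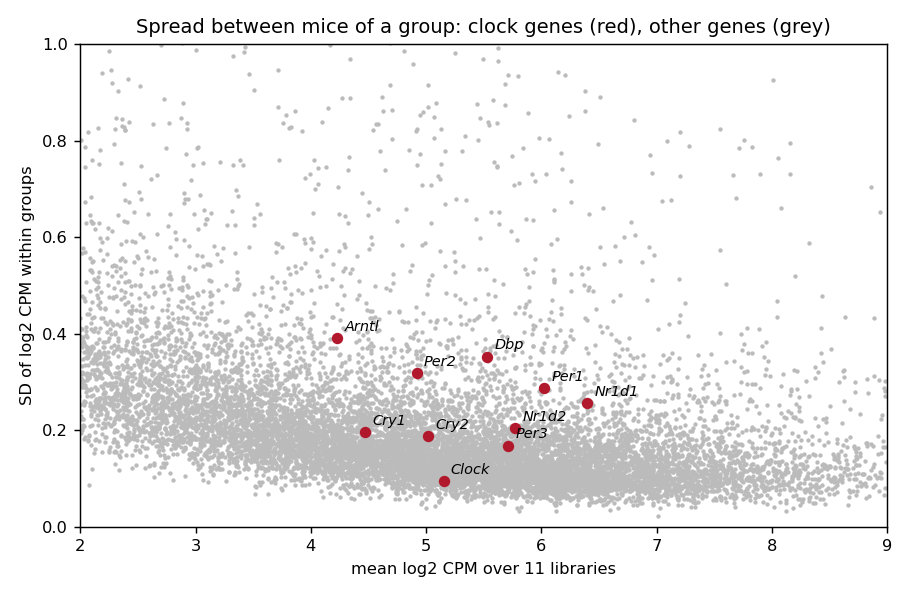
SD of log2 CPM between libraries of one group (y axis, pooled over both groups) against the mean log2 CPM over 11 libraries (x axis) for all tested genes within the axes (grey) and the clock genes (red). Arntl, Dbp, Per2, Per1 and Nr1d1 lie above most genes of their level, and Clock, at 0.09, lies below most.

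Which members rose and fell together was read over the 45 pairs of members, with Pearson's r and Spearman's rho of log2 CPM in the 11 libraries and permutation tests adjusted over the pairs. No pair had an adjusted p under 0.05 (lowest 0.0772), 9 had an unadjusted permutation p under 0.05 by r and 5 by rho. Of these 9, 8 were positive and lay among Per2, Per3, Cry1, Cry2, Nr1d2 and Dbp, but not every pair of these genes was included. Per3 was joined only to Dbp (r = 0.74, rho = 0.54, permutation p = 0.00992 and 0.0933, adjusted 0.0893 and 0.391). Cry2 was joined only to Per2, and Cry1 and Cry2 had r = 0.44 (permutation p = 0.176). Per2 and Dbp had r = 0.81 and rho = 0.80 (permutation p = 0.00287 and 0.00428, adjusted 0.0772 and 0.193), and r = 0.63 without the 2 libraries farthest from the median of Per2. Of all tested genes, 0.709% had as large an absolute r with Per2, and 0.618% with Dbp. Other pairs of the 9 were less unusual. The share was up to 12.2% for Cry1 and Nr1d2 (with Nr1d2) and 9.43% for Nr1d2 and Dbp (with Nr1d2). It was up to 8.46% for Clock and Dbp (with Dbp) and 7.93% for Per2 and Cry1 (with Per2). Per2 and Nr1d2 had r = 0.78 and rho = 0.70 (p = 0.00343 and 0.0201, adjusted 0.0772 and 0.226), and r = 0.72 without the 2 libraries. Cry1 and Dbp had r = 0.78 and rho = 0.72 (p = 0.00518 and 0.0160, adjusted 0.0777 and 0.226), and r = 0.70 without the 2 libraries.

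The libraries behind these pairs can be named. Control replicate 1 and BMAd-DTA replicate 1 had the lowest values of Per2, Dbp and Nr1d2 in their groups, while Control replicate 3 had the highest Per2, Cry1 and Dbp of all libraries. In Control replicate 3, 9 of the 10 members were above their median over the 11 libraries, and in Control replicates 1 and 4 and BMAd-DTA replicate 7 only 2 were. With the group means removed, r was 0.80 for Per2 and Dbp. Within the 7 BMAd-DTA libraries it was 0.61 (exact permutation p = 0.138) and the adjusted p of every pair was at least 0.455. Without Control replicate 1 the lowest adjusted p was 0.283, and without BMAd-DTA replicate 6, where Dbp was high and Per2 near the group's median, Per2 and Dbp had an adjusted p of 0.0320. Nr1d2 and Dbp rested on the outer libraries: r was 0.68 (rho = 0.57, p = 0.0209 and 0.0704, adjusted 0.156 and 0.391) and fell to 0.26 without the 2 farthest.

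**Figure D4:**
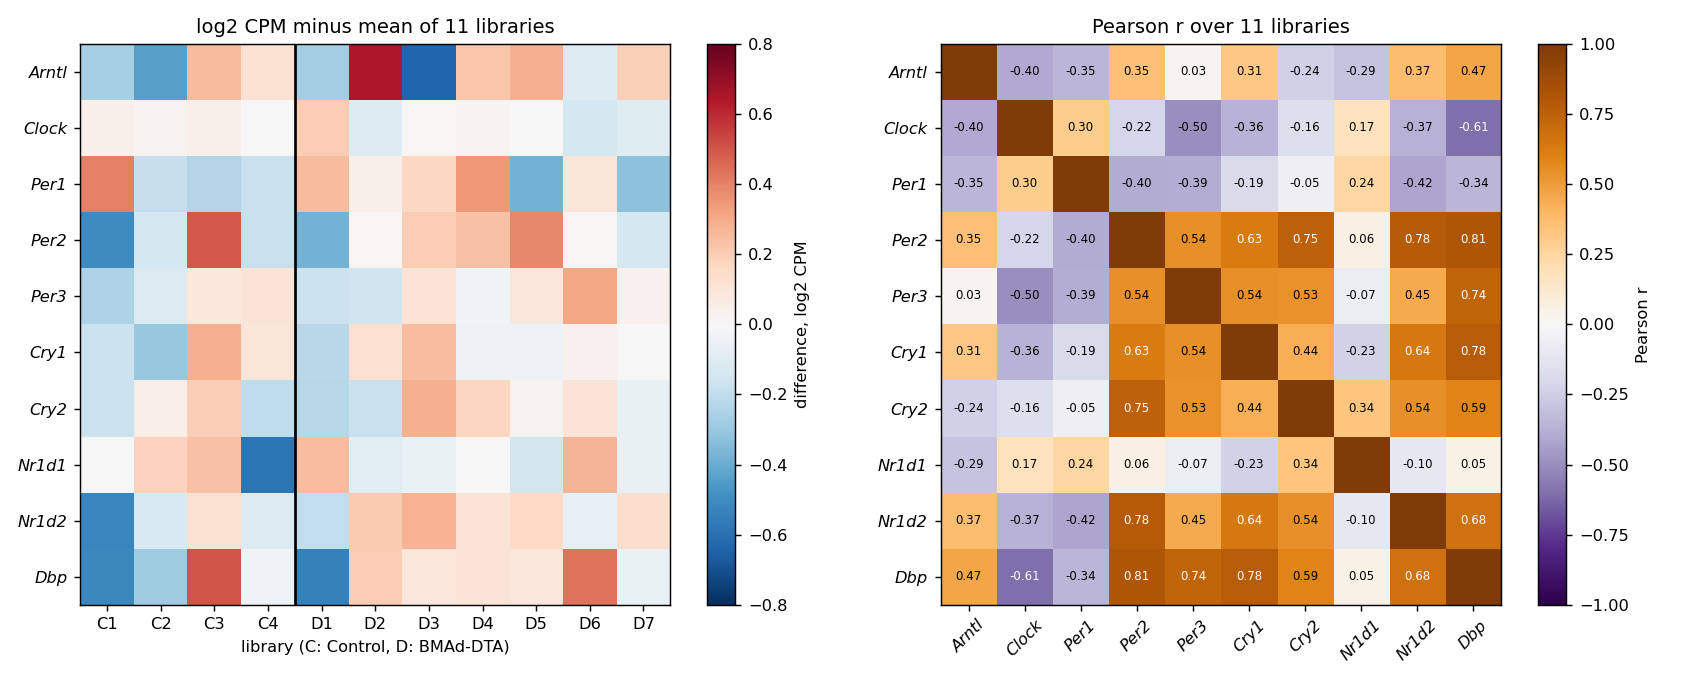
Left, log2 CPM of each clock gene in each library minus its mean over the 11 libraries (red above, blue below). Right, Pearson r between the genes over the 11 libraries. Control replicate 3 is red and Control replicate 1 and BMAd-DTA replicate 1 are blue for most of the block from Per2 to Dbp, in which Nr1d1 stands apart (r = 0.05 with Dbp).

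The other members, Arntl, Clock, Per1 and Nr1d1, had no positive pair with an unadjusted permutation p under 0.05 by r. Clock and Dbp ran opposite with r = -0.61 (rho = -0.42, p = 0.0452 and 0.202, adjusted 0.226 and 0.398), which fell to -0.15 without the 2 farthest libraries and so rested on those. It was -0.86 within the BMAd-DTA libraries, which include those 2 (exact permutation p = 0.0286, adjusted over the 45 pairs 0.455). Nr1d1 and Nr1d2, close relatives with the same DNA sequence preference, had r = -0.10 (rho = -0.43, p = 0.746 and 0.194, adjusted 0.840 and 0.398), and r = -0.37 without the 2 farthest. Within BMAd-DTA alone their r was -0.88 (exact permutation p = 0.0218, adjusted over the 45 pairs at least 0.455). Per1 and Per2 had r = -0.40 (rho = -0.39, p = 0.225 and 0.238, adjusted 0.474 and 0.412), and -0.37 without the 2 farthest. The Per1 to Per2 ratio of CPM ran from 1.27 in BMAd-DTA replicate 5 and 1.30 in Control replicate 3 to 3.34 in BMAd-DTA replicate 1 and 4.04 in Control replicate 1.

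Arntl, whose peak is opposite to that of Nr1d1 and Dbp in cycling tissue, was set against both. With Nr1d1 it had r = -0.29 (rho = -0.38, p = 0.390 and 0.249, adjusted 0.548 and 0.414), and -0.33 without the 2 farthest libraries. With Dbp it had r = 0.47 (rho = 0.61, p = 0.148 and 0.0528, adjusted 0.417 and 0.391), and 0.59 without the 2 farthest. The ratio of Arntl to Dbp in CPM ran from 0.245 in BMAd-DTA replicate 3 to 0.551 in BMAd-DTA replicate 2, with Control between 0.339 and 0.481. The ratio of Arntl to Nr1d1 was 0.144 to 0.185 in Control replicates 1 and 2 and BMAd-DTA replicates 1, 3 and 6, and 0.225 to 0.370 in the other 6 libraries. No opposite movement of Arntl and Dbp was detectable among these mice.

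The genes whose pattern over the 11 libraries was most like that of Arntl, among 14881 tested genes with a mean of at least 1 CPM, were Arpc5l (r = 0.95), Dusp2 (0.95), 2010007H06Rik (0.93), Ebf1 (0.93) and Lrmp (0.93). Ebf1 is a transcription factor that defines the B lymphocyte lineage, and its level ran from 77.1 to 144 CPM. The genes most opposite to Arntl were Tmem79 (-0.85), Idh3a (-0.84), Ctbp2 (-0.83), Yjefn3 (-0.83) and Gsr (-0.83).

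The summed B lymphocyte genes had 326, 535, 798 and 791 CPM in Control replicates 1 to 4 and 606 to 1462 CPM in BMAd-DTA. Arntl followed this sum with r = 0.79 and rho = 0.87 (permutation p = 0.00350 and 0.00096, adjusted over the 110 pairs of a member and a list 0.192 and 0.106), and r = 0.86 without the 2 farthest libraries. Of all tested genes, 2.12% had as large an absolute r with the sum. Within the 7 BMAd-DTA libraries r was 0.92 (exact permutation p = 0.00397, adjusted over the 110 pairs 0.218), beside 0.90 for Cry1 and the osteoblast and osteocyte sum (exact permutation p = 0.00278, adjusted 0.218, r = 0.47 over all 11 libraries). With the group means removed r between Arntl and the B lymphocyte sum was 0.83, and it stayed between 0.69 (without BMAd-DTA replicate 2) and 0.90 (without Control replicate 1). BMAd-DTA replicate 2, with the most Arntl, had the highest B lymphocyte sum, and BMAd-DTA replicate 3, with the least Arntl, the lowest of its group. With the B lymphocyte sum as a covariate, a setting added after the data were seen, the genotype log2 fold change of Arntl was -0.23 (adjusted p = 0.642, edgeR). After removal of the same sum, r between Arntl and Dbp was 0.01. The part of B lymphocytes in the Arntl values was not tested. No other relation of a member with a list, of 110 computed, had an adjusted p under 0.05 either. The skeletal muscle list, whose sums fell in separate clusters, was not among the lists of these 110 pairs. Per1 and the glucocorticoid responsive genes had r = 0.63 (rho = 0.61, permutation p = 0.0401 and 0.0512, adjusted 0.584 and 0.663), and r = 0.65 without the 2 farthest.

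**Figure D5:**
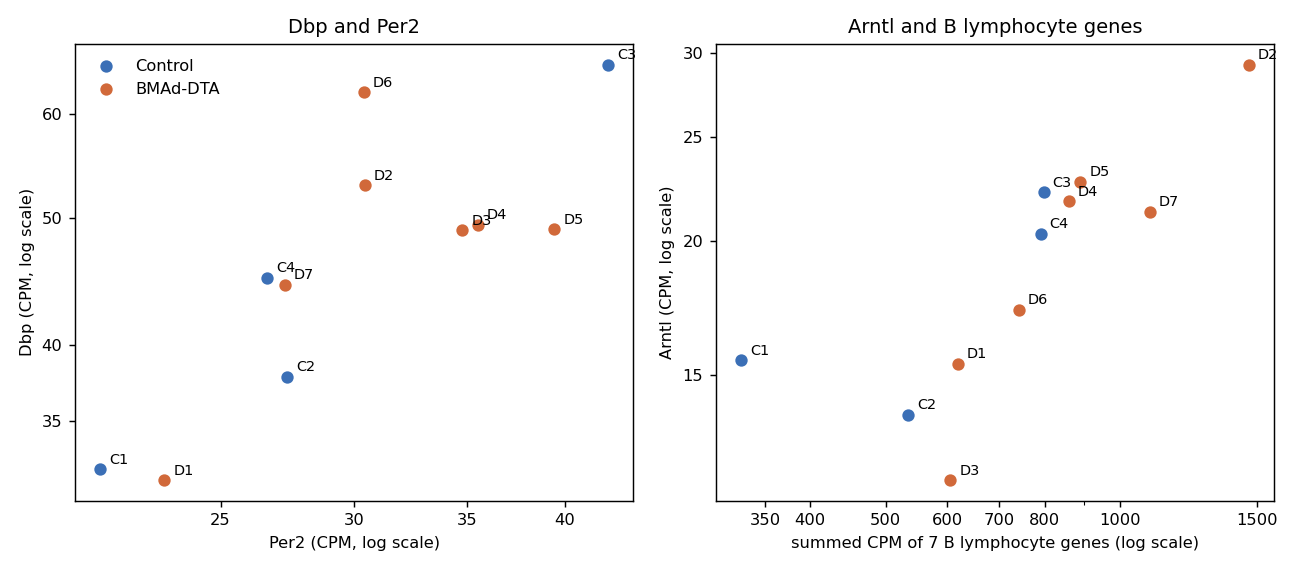
Left, Dbp against Per2, and right, Arntl against the summed level of 7 B lymphocyte genes, in CPM on log axes, for Control (blue, C) and BMAd-DTA (orange, D) libraries with their replicate numbers. Dbp and Per2 are lowest in C1 and D1 and highest together in C3; Arntl is highest in D2, which has the highest B lymphocyte sum of 1462 CPM.

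The genes most like Dbp were Mea1 (r = 0.94), Wdr47 (0.92), 5330438D12Rik (0.92), Gtpbp6 (0.92) and Tef (0.90). Tef encodes a PAR bZIP factor of the same family as DBP that binds the same D-boxes. Tef had 75.1, 82.9, 116 and 94.99 CPM in Control and 75.1 to 119 CPM in BMAd-DTA, and the libraries low in Dbp, Control replicate 1 and BMAd-DTA replicate 1, were also the lowest in Tef. The genes most opposite to Dbp were Pip4k2a (-0.94), Mtf1 (-0.92), Sos1 (-0.90), Cspp1 (-0.89) and Gsk3b (-0.89). Gsk3b encodes a kinase that phosphorylates several clock proteins, and it had 82.5 to 107 CPM. The third PAR bZIP gene, Hlf, had r = 0.61 with Dbp. These r values are a description of genes chosen for their size, over 11 libraries that share differences in cell make-up.

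The wider clock network was read from 35 tested genes in 3 lists. Of 11 tested genes of the secondary loops, 0 were called by edgeR, 1 had an unadjusted p under 0.05 and 7 had log2 fold changes above 0, with a median of 0.15. Bhlhe41 (DEC2, a repressor at E-boxes) had 12.1, 16.84, 16.7 and 13.3 CPM in Control and 16.85 to 22.3 CPM in BMAd-DTA, groups that did not overlap by a narrow margin. Its log2 fold change was 0.40 ± 0.11 (adjusted p = 0.115 in edgeR, 0.0327 in DESeq2). Npas2, a substitute partner of ARNTL, lay at the other end with -0.39 ± 0.36 (adjusted p = 0.648, edgeR), from 1.92 CPM in BMAd-DTA replicate 7 to 9.43 CPM in BMAd-DTA replicate 1.

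Of 15 tested genes that modify or degrade clock proteins, 0 were called by edgeR and 4 had an unadjusted p under 0.05, with 10 log2 fold changes below 0 and a median of -0.03. Btrc, a ubiquitin ligase subunit that recognises PER proteins, had the lowest value, -0.38 ± 0.11 (adjusted p = 0.120 in edgeR, 0.0389 in DESeq2), and levels of 54.5 to 67.3 CPM in Control and 36.5 to 58.9 CPM in BMAd-DTA. Usp7, a deubiquitinase, had -0.28 ± 0.08 (adjusted p = 0.113 in edgeR, 0.0313 in DESeq2). Fbxl21 had the highest, 0.23 ± 0.42, at a mean of only 0.802 CPM.

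Of 9 tested output genes, 0 were called by edgeR and 2 had an unadjusted p under 0.05, with a median log2 fold change of -0.06. Cdkn1a, which encodes the cell cycle inhibitor p21, had 34.1, 28.3, 33.98 and 27.2 CPM in Control and 35.8 to 47.7 CPM in BMAd-DTA, with no overlap of the groups. Its log2 fold change of 0.47 ± 0.10 had an adjusted p of 0.0675 in edgeR and 0.00121 in DESeq2, and without Control replicate 3 edgeR called it. Nampt, which encodes the enzyme that limits NAD synthesis, was the lowest at -0.23 ± 0.08 (adjusted p = 0.183, edgeR). Over these 3 lists together edgeR called 0 of 35 genes, beside 0.0788% of all genes, and 7 had an unadjusted p under 0.05 (20%, beside 16.4% of all genes). DESeq2 called 4 (11.4%, beside 5.42%), namely Bhlhe41, Btrc, Usp7 and Cdkn1a.

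Genes that respond to the hormones and stimuli known to act on Per1 were read beside it. Of 12 glucocorticoid responsive genes, 0 were called and 0 had an unadjusted p under 0.05 in edgeR, and DESeq2 called 0; their log2 fold changes ran from -0.21 for Dusp1 to 0.32 for Mt1, with a median of 0.17. Of 9 tested immediate early genes, 0 were called by edgeR or DESeq2 and 1, Egr2, had an unadjusted p under 0.05 (log2 fold change 0.70 ± 0.24, adjusted p = 0.167 in edgeR), with Fosb lowest at -0.24 and a median of 0.15. Control replicate 1, the library with the highest Per1, had a glucocorticoid responsive sum of 488 CPM, within the 378 to 501 CPM of the Control group, and the highest immediate early sum of that group, 201 CPM against 153 to 197 CPM.

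The marker lists of the cell types in bone are given for comparison, and their part in the clock values was not tested. Of 10 osteoblast and osteocyte genes, edgeR called 1, Alpl (alkaline phosphatase), at 1.16 ± 0.17 (adjusted p = 0.0326), and DESeq2 called 7. Outside the osteoblast and osteocyte list and the adipocyte list, where Retn was called, edgeR called 0 genes of these lists. Unadjusted p-values under 0.05 in edgeR, which 16.4% of all genes had, numbered 4 of 7 tested erythroid genes (median log2 fold change -0.47), 1 of 7 B lymphocyte genes (0.53), 4 of 6 T lymphocyte genes (0.43), 3 of 6 osteoclast genes (0.95) and 2 of 5 chondrocyte genes (0.19). They numbered 0 of 14 skeletal muscle genes (median -0.84), 0 of 10 neutrophil genes (-0.05) and 0 of 6 endothelial genes (-0.09). DESeq2 called 3 erythroid, 1 osteoclast and 1 chondrocyte gene and 0 in the remaining lists but the adipocyte list, where it called 2.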

How the data were processed

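Counts per gene from 4 Control and 7 BMAd-DTA distal tibiae were analysed. The authors checked reads with FastQC 0.11.9, aligned them to mm10 with STAR, and deposited read-strand counts per gene without normalization, as a merged table of 22600 genes and per library. Of its gene IDs, 99.89% matched GENCODE M21 (GRCm38) without the version, used for positions and exon lengths. The annotation release is not given in the sources used here.

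The test was glmQLFTest of edgeR 4.0.16 under R 4.3.3, two-sided, after filterByExpr and TMM, with genotype as the only term. SEs were derived as log2 fold change over the root of F. DESeq2 1.42.0 and limma-voom (limma 3.58.1) were alternatives. Correlations were computed on log2 CPM (prior count 2) with 100000 permutations (all permutations below 10 libraries, named exact). In a simulation of 16234 genes, edgeR recovered 92.5% of changed genes and called 8 unchanged ones. Recovery at fold changes as small as those of the clock members was not tested. Libraries are separate mice, and no replicate pair agreed within counting noise (lowest chi-square per gene 16.6).

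The members and lists were chosen with earlier results of these data known. Named genes are the 10 members in full, the extremes of each other list and any with an adjusted p under 0.05, and the 5 highest and 5 lowest r with Arntl and with Dbp; Usp7 and Hlf were named after their values were seen. Rorb was not tested, and Csnk1e, Tspan4 and Junb are not used here.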

Additional observations from a re-analysis of the deposited data

Results flagged for a closer look

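Per1 in Control replicate 1, at 85.8 CPM, lay far from the rest of its group, whose next highest library had 57.4 CPM. The gap was 0.93 of the whole range of the 4 Control libraries. Among 20 combinations of a member and a group this was the 1 that stood out, and chance alone gives about 1 in 20. The same library had the lowest Per2, Per3 and Nr1d2 of all 11 libraries.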

How the results depend on the processing

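No paired analysis was possible because the labels give no replicate numbers that tie Control to BMAd-DTA mice. The number of clock members called was 0 in each of the 20 alternatives. At an unadjusted p under 0.05, edgeR had 2 members, Nr1d2 and Per2, without Control replicate 3. It had 1, Nr1d2, without BMAd-DTA replicate 1 and without BMAd-DTA replicate 6. Over all genes, where 13 were called, DESeq2 called 845, limma-voom 20, RLE scaling 20, the skeletal muscle covariate 3 and the B lymphocyte covariate, added after seeing the data, 0 (1715 genes at an unadjusted p under 0.05). Leaving out 1 library gave 0 to 292 genes: 292 without Control replicate 3, 89 without Control replicate 4, 8 and 3 without BMAd-DTA replicates 3 and 4, and 0 without Control replicates 1 and 2 or BMAd-DTA replicates 1 and 6 (1784, 2239, 2626 and 2528 genes at an unadjusted p under 0.05). Clock network genes called were 0 in edgeR, 4 in DESeq2 and 0 to 1 with 1 library left out. Pairs of members called were 0, with 4 on skeletal muscle residuals, 2 on B lymphocyte residuals and 0 to 1 with 1 library left out. The median SD of the members was 0.231, and 0.21 to 0.244 with 1 library left out.

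Member fold changes that did not pass the test changed sign as follows, on the log2 scale. With the B lymphocyte covariate, Arntl was -0.229, Clock 0.0109, Per2 -0.0347, Cry1 -0.0667 and Dbp -0.0927, and with the muscle covariate Cry1 was -3.2e-05. With 1 library left out, the range was -0.0258 to 0.335 for Per2, -0.0640 to 0.142 for Cry1, -0.00594 to 0.135 for Cry2, -0.110 to 0.135 for Nr1d1 and -0.0306 to 0.339 for Dbp. Without a change of sign it was 0.0365 to 0.274 for Arntl, -0.0774 to -0.0178 for Clock, 0.0139 to 0.249 for Per1, 0.00736 to 0.122 for Per3 and 0.129 to 0.341 for Nr1d2. Among the former genes the low ends came without Control replicate 1 (Per2, Dbp), 2 (Cry1) or 4 (Cry2, Nr1d1), the high ends without Control replicate 3. Correlations near 0 also changed sign. Nr1d1 and Dbp had r = -0.025 with library totals only, -0.181 in BMAd-DTA alone, -0.210 without the 2 farthest libraries and -0.131 to 0.277 with 1 library left out. Nr1d1 and Nr1d2 had 0.318 on muscle residuals and 0.120 on B lymphocyte residuals. The cause was not tested. Without an hour of collection, these libraries hold no measure of rhythm.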
